A study of Labrus bergylta with 77 samples.

Results

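Ballan wrasse larvae were reared on 2 live diets and then moved to the same dry feed. The genes described here are those whose mean diet difference changed between the live feed stages and the later stages. The measure was a contrast of contrasts. For each gene, the plankton minus control difference in log2(TPM + 1) was averaged over the stages BW6 and BW7, and the mean of the same difference over BW2, BW3, BW4 and BW5 was subtracted from it. A value above 0 means that plankton larvae gained expression relative to control larvae after the live feed, and a value below 0 that they lost it. TPM is the number of transcripts of a gene in 1000000 transcripts, a share of each library. Of 29932 genes in the table, 22028 were tested and 35 passed an adjusted p of 0.05, which is 0.159% of the genes tested.

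The plankton diet was given to tanks B5, B7 and B9, and a control diet of rotifers and Artemia, the usual live prey of hatchery larvae, to tanks B6, B8 and B10. Each library was a pool of whole larvae. The 72 fed pools, 2 for each tank and stage, were averaged to 36 tank libraries (n = 3 tanks per diet and stage). The unit of the fit was a tank at a stage, and libraries of a tank at different stages were counted as independent. Larvae were sampled by length rather than by age. They measured 4.1 to 4.5 mm at 9 days post hatch (dph) at BW2. At BW3, larvae of 5.7 to 6.1 mm were 18 dph on plankton and 16 dph on control feed. At BW4 they measured 7.1 to 7.4 mm at 28 and 26 dph, and at BW5 10.1 to 10.6 mm at 41 and 36 dph. At BW6 and BW7 both diets were sampled at the same ages, 58 to 59 dph at 16 to 16.5 mm and 79 to 80 dph at 26.4 to 27.9 mm. Dry feed was first offered beside live feed at 40 dph and was the sole feed from 56 dph. At BW5, then, only the plankton larvae had reached the days with dry feed. The end of live feeding came with greater age and size in both diets, so that feed and growth cannot be told apart. From BW3 to BW5 plankton larvae were also older than control larvae, and afterwards they were not. A change in the diet difference therefore cannot be told apart from the end of this age gap. Unfed larvae of BW0 (5 pools, 4 dph, 4 mm) entered the fit but not the contrast.

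A marine fish larva grows on live prey while its gut, liver and immune organs are still forming. Prey differ in the amino acids, sterols and fatty acids they supply, and animal cells answer a shortage by switching on synthesis. A shortage of amino acids acts in vertebrates through the transcription factor ATF4, which raises genes for amino acid synthesis, uptake and tRNA charging. A shortage of cholesterol in the cell acts through SREBP factors, which raise the enzymes of the mevalonate and sterol pathway.

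Fed pools held 14958 to 19641 genes at 1 TPM or more, and their 50 highest genes took 29.2% to 45.7% of all transcripts. Sequencing depth is unknown, since the values are TPM. Of the 77 pools, 9 correlated better with another stage and diet group than with their own. They were 7 plankton pools (BW2 of B5, BW3 of B9, both BW5 pools of B9, BW6 of B9 and both BW7 pools of B7), the BW2 control pool R3 of B8 and 1 unfed pool. The furthest was the BW2 plankton pool R3 of B5, with a mean correlation of 0.9615 with unfed larvae and 0.9239 with its own group. Without these 9 pools 128 genes were called, 29 of the 35 among them. The 6 calls that ended were ass1 (adjusted p = 0.0554 by limma), PHGDH (0.0931), Beta-crystallin B2 (0.0687), cryaa (0.0802), LAMB3 (0.091) and Stonustoxin subunit beta (LABE_00081282; 0.0739).

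Of the 35 genes, 22 had a contrast above 0 (0.0999% of genes tested) and 13 below 0 (0.059%). In 21 of them the diet difference was called during live feeding and not afterwards. In 10 it was called only afterwards, in 1 in both periods with the same sign, and in 3 in neither mean. A diet difference called in 1 period and not in the other is not in itself a change, and the contrast is the test of that change. For comparison, the mean diet difference was called in 2017 genes (9.16%) during live feeding, 549 higher and 1468 lower in plankton larvae, and in 142 genes (0.645%) afterwards, 107 higher and 35 lower. The excess of lower genes on live feed depended on the scaling and on BW2: 1294 were higher and 1220 lower with size factors, 1077 and 1468 with TMM factors, and 192 and 148 without BW2. For all 35 genes the 3 plankton tanks lay on one side of the 3 control tanks in the change from the live feed stages to BW6 and BW7. The same held for 16.4% of all genes tested, 12.1% with plankton tanks above and 4.38% below. The contrast that chose the 35 genes is the diet difference in this same change, so their separation is not separate evidence. The contrast was above 0 in 66.6% of genes, with a median of 0.06 over all genes, which size factors and TMM factors brought to 0.00098 and 0.0074. With the tank as a replicate block in the fit 19 genes were called, 16 of them among the 35. The largest of the 6 stage differences was at BW2 in 15 of the 35 genes and at BW6 in 12. Without BW2 8 genes were called, and of the 35 these held chac1, fam213a and both apolipoprotein D genes. All 35 kept their sign without BW2, at a median of 0.829 of their size. Without BW6 33 genes were called, and only 8 of them were among the 35. With a single value for each tank, 3 against 3, no gene was called (smallest adjusted p = 0.0765 by limma, 2108 genes with an unadjusted p under 0.05). Leaving out 1 tank at a time gave 53 calls without B5, 14 without B6, 13 without B7, 2 without B8, 17 without B9 and 11 without B10. Of the 35, chac1 was called in all 6 of these fits, WARS and Chia (LABE_00058258) in 5, and no other in more than 2. The count of genes called on live feed lay between 650 without B8 and 1934 without B6, and that afterwards between 60 without B6 and 122 without B9.

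**Figure D1:**
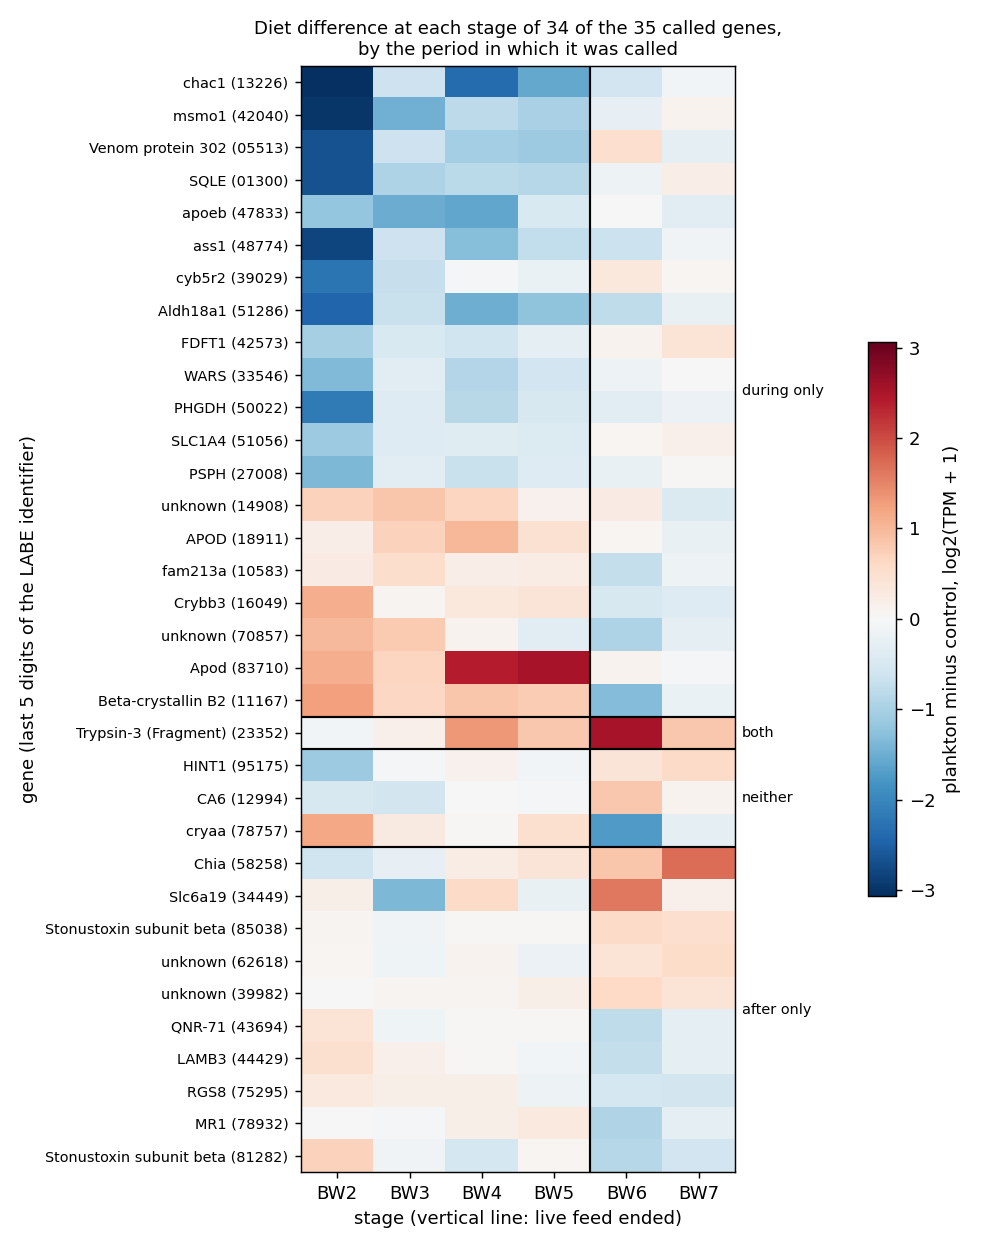
Plankton minus control difference in log2(TPM + 1) at each of the 6 stages (columns) for 34 of the 35 called genes (rows), grouped by the period in which the mean diet difference was called. Red is higher in plankton larvae and blue higher in control larvae. In the 13 genes at the top the blue is on average paler at BW6 and BW7 than at BW2 to BW5. The course is uneven by stage: ass1 stands at -0.62 at BW3 and -0.65 at BW6, and cyb5r2 already at -0.05 at BW4. In the 10 at the bottom the mean difference is larger at BW6 and BW7.

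Genes of amino acid synthesis and the chac1 gene LABE_00013226 stood higher in control larvae on rotifers and Artemia. The mean difference was smaller after the move to dry feed. In mammals chac1 answers amino acid shortage. Of 47 tested genes of the amino acid stress list, 5 were called, all with a contrast above 0, against 0.0999% of all genes. The 5 were chac1, ass1, PSPH, PHGDH and Aldh18a1. This list and those below were chosen with earlier results of these data known, so their shares are not separate evidence. WARS and SLC1A4 are not on the list and are described with it because their course was seen to be alike. The Slc6a19 gene LABE_00034449, another called amino acid transporter, took a different course. Its diet difference was -0.22 on live feed (not called) and 0.89 afterwards. The list's median contrast was 0.23, against 0.06 over all genes. During live feeding 15 of the 47 were lower (6.66% of all genes) and 3 higher (2.49%) in plankton larvae. Afterwards 1 was lower (0.159%).

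The gene chac1 (LABE_00013226) encodes an enzyme that degrades glutathione and is a target of ATF4 in mammals. At BW2 its level was 101, 81.2 and 101 TPM in plankton tanks B5, B7 and B9 and 680, 993 and 730 TPM in control tanks B6, B8 and B10. At BW4 it was 234, 286 and 367 against 1530, 1586 and 1265 TPM, and at BW5 464, 344 and 328 against 1113, 1516 and 821 TPM. At these 3 stages every control tank was above every plankton tank. The same held at BW3 by a narrower margin, at 155, 148 and 82.4 against 168, 168 and 249 TPM. The diet difference of BW3 was -0.63, close to the -0.57 of BW6. After live feeding the levels were 70.3, 101 and 112 against 191, 121 and 116 TPM at BW6, and 261, 270 and 253 against 298, 307 and 231 TPM at BW7. Control tanks were still above plankton tanks at BW6, by a smaller margin, and the diets overlapped at BW7. The mean diet difference was -1.90 ± 0.11 (SE, log2 scale) during live feeding and -0.33 ± 0.16 afterwards, and the contrast was 1.58 ± 0.20 (adjusted p = 9.4e-05 by limma). This was the smallest p of all genes tested. It was called in 27 of 29 alternative analyses and in all 6 that left out a tank. A second gene named chac1 (LABE_00009011) was not called and went the other way at BW2. There it was at 23.4, 30.1 and 38 TPM in plankton and 7.29, 13.7 and 6.92 TPM in control tanks. Its medians were 29.4 against 21 TPM on live feed and 19.1 against 17.8 TPM afterwards.

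WARS (LABE_00033546), which charges tRNA with tryptophan, ranged over the 12 tank libraries of the live feed stages from 20 to 35.8 TPM (median 25.9) in plankton tanks and from 33.1 to 69.9 TPM (median 44.6) in control tanks. Afterwards both diets had a median of 22.7 TPM. The ranges overlapped little before and wholly afterwards, and the contrast was 0.72 ± 0.11 (adjusted p = 0.00169 by limma).

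The arginine synthesis enzyme ass1 (LABE_00048774) was at 43.6, 24 and 30.1 TPM in plankton tanks and 141, 301 and 177 TPM in control tanks at BW2. At BW7 the same tanks held 128, 117 and 125 against 133, 135 and 133 TPM. Control tanks were thus higher at both ends, by a wide gap at BW2 and a narrow one at BW7. Between them the gap did not follow the feed step by step. The diet difference was -0.62 at BW3, -1.30 at BW4, -0.74 at BW5 and -0.65 at BW6. At BW6 the tanks held 65.6, 62.5 and 93.7 against 117, 104 and 104 TPM, without overlap. Its contrast was 0.98 ± 0.19 (adjusted p = 0.0216 by limma), and 0.50 without BW2 (adjusted p = 0.464).

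Both ends of the serine pathway were called. PHGDH (LABE_00050022), its first enzyme, had medians of 32.4 and 60.6 TPM in plankton and control tanks during live feeding and 20.7 and 23 TPM afterwards (contrast 0.70 ± 0.15, adjusted p = 0.0418 by limma, 0.0544 with the tank block). PSPH (LABE_00027008), its last enzyme, had medians of 51.3 and 73.8 TPM and then 28.2 and 28.4 TPM (0.60 ± 0.11, adjusted p = 0.0227). In both genes the diet difference was largest at BW2. For PHGDH it was -2.15 at BW2, -0.39 at BW3, -0.84 at BW4, -0.48 at BW5 and -0.35 at BW6. Without BW2 neither gene was called, with contrasts of 0.31 for PHGDH (adjusted p = 0.739 by limma) and 0.37 for PSPH (adjusted p = 0.228). Levels of both genes were lower in either diet after live feeding, with the larger drop in control tanks. The middle enzyme, PSAT1 (LABE_00051525), had a contrast of 0.56 and was not called (adjusted p = 0.130).

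Aldh18a1 (LABE_00051286), which opens proline and ornithine synthesis, lay between 2.29 and 8.08 TPM in plankton tanks and between 6.57 and 26.7 TPM in control tanks during live feeding. Afterwards it lay between 1.49 and 7.86 against 3.51 and 9.45 TPM. Its contrast was 0.96 ± 0.20 (adjusted p = 0.0332, 0.0515 with the tank block). SLC1A4 (LABE_00051056), a transporter of neutral amino acids, had medians of 8.45 against 13.2 TPM and then 4.86 against 4.47 TPM, with a contrast of 0.69 ± 0.13 (adjusted p = 0.0227). Of 3 genes named for the factor Atf4, none was called in the contrast. The most abundant (LABE_00002979) had medians of 209 TPM in plankton and 230 TPM in control tanks on live feed and a contrast of 0.02 ± 0.08 (adjusted p = 0.971 by limma). At BW2 it was higher in plankton larvae, at 267, 280 and 302 against 250, 234 and 204 TPM. A second (LABE_00049770) had a contrast of 0.49 ± 0.27 (adjusted p = 0.72). The third (LABE_00090962) stood at medians of 118 against 163 TPM before and 96.9 against 97.3 TPM afterwards. Its contrast of 0.55 ± 0.13 did not pass (adjusted p = 0.0699), although its diet difference during live feeding was called (-0.44, adjusted p = 0.00025).

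**Figure D2:**
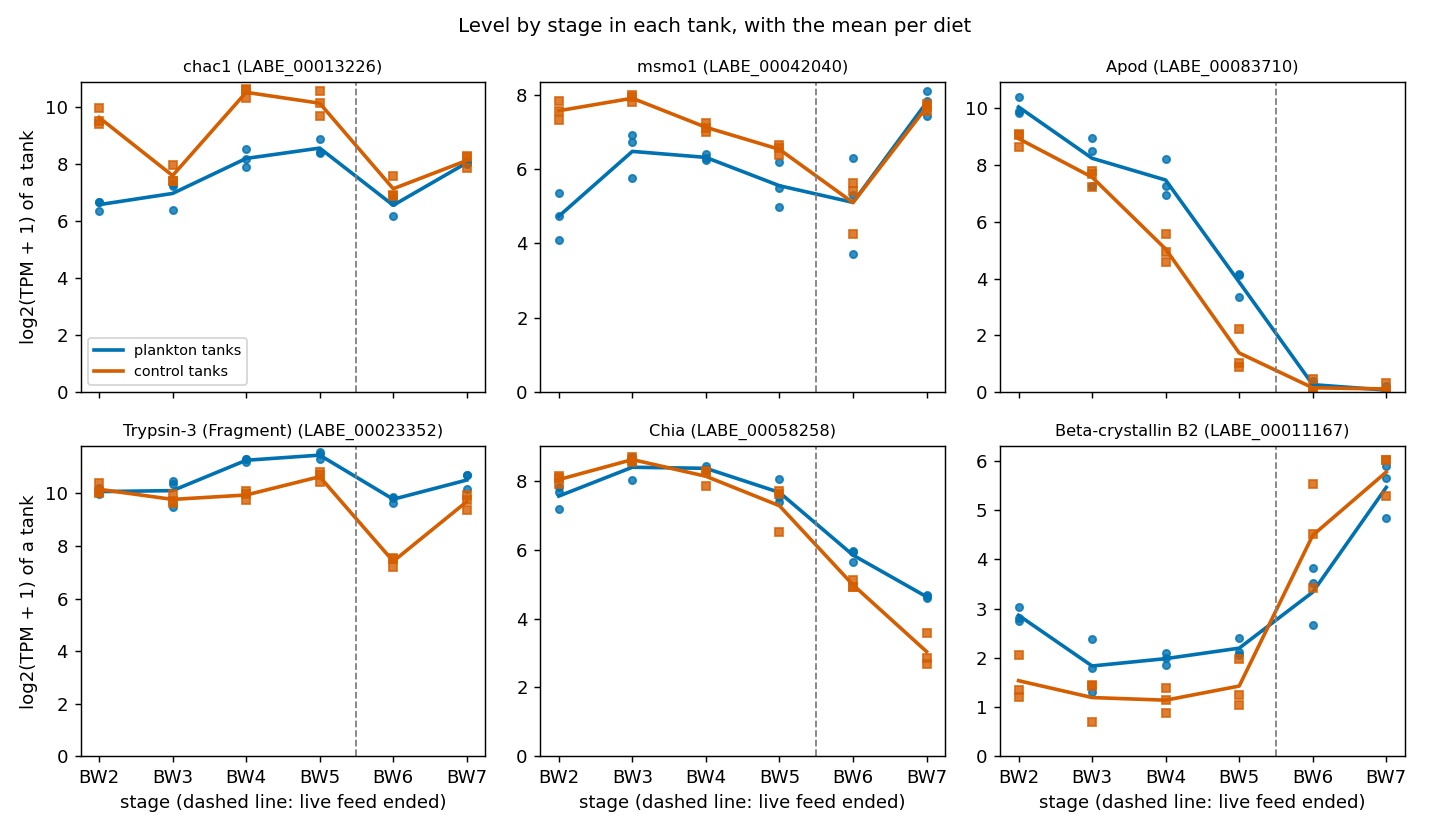
Level of 6 called genes in each tank as log2(TPM + 1), by stage, with plankton tanks as circles, control tanks as squares and the mean of each diet as a line. For chac1 and msmo1 the diets stand apart before the dashed line, for chac1 only narrowly at BW3, and are on average closer after it. Apod reaches 0 in both diets, and for Chia the diets stand furthest apart after it.

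Enzymes of cholesterol synthesis stood lower in plankton larvae during live feeding, and the difference was smaller afterwards. Of 28 tested genes, 3 were called, msmo1, SQLE and FDFT1, all with a contrast above 0, against 0.0999% of all genes. A further 6, among them dhcr7, Hsd17b7 (LABE_00004083), IDI1, mvd and Nsdhl, lay between adjusted p = 0.052 and 0.053 by limma. In 23 of the 28 all 3 plankton tanks changed upward relative to all 3 control tanks, against 12.1% of all genes. The median contrast of the list was 0.84, and between 0.51 and 0.99 over 29 alternatives. By stage the median diet difference was -1.59 at BW2, -0.45 at BW3, -0.56 at BW4, -0.28 at BW5, -0.07 at BW6 and 0.12 at BW7. During live feeding 19 of the 28 were lower in plankton larvae and 1 higher, against 6.66% and 2.49% of all genes. Afterwards none was lower and 1 higher, against 0.159% and 0.486%.

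The sterol demethylation enzyme msmo1 (LABE_00042040) had BW2 levels of 40.2, 25.6 and 15.9 TPM in plankton tanks and 158, 224 and 189 TPM in control tanks. At BW6 the tanks held 12.1, 38.5 and 77.3 against 18, 41.2 and 48.7 TPM, and at BW7 228, 169 and 275 against 203, 187 and 215 TPM. The diets were far apart at BW2 and overlapped at both later stages. Within each diet the lowest tank at BW6 was the lowest numbered, B5 or B6. The contrast was 1.49 ± 0.29 (adjusted p = 0.03 by limma, 0.0544 with the tank block, 0.364 without BW2, where it was 1.02).

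SQLE (LABE_00001300), which makes the epoxide of squalene, ran from a median of 18.9 TPM in plankton tanks and 48.7 TPM in control tanks to 34 and 29.1 TPM. Its contrast was 1.34 ± 0.30 (adjusted p = 0.0484, 0.0551 with the tank block). FDFT1 (LABE_00042573), which makes squalene, went from 9.76 against 16.2 TPM to 18.5 against 15.2 TPM, a contrast of 0.85 ± 0.19 (adjusted p = 0.0484, 0.0544 with the tank block). In both genes the order of the medians over BW6 and BW7 was reversed, but the diet difference afterwards was not called (0.02 and 0.26). By stage it was -0.16 at BW6 and 0.20 at BW7 for SQLE, and 0.11 and 0.41 for FDFT1. The regulator insig1 was an exception to the group, with a diet difference of 0.39 during live feeding and 0.73 afterwards.

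Further called genes stood lower in plankton larvae on live feed, with no call afterwards. One was apoeb (LABE_00047833), an apolipoprotein E, which was at 0.288, 0.153 and 0.111 TPM in plankton tanks and 1.36, 2.26 and 1.53 TPM in control tanks at BW2. It reached 41.5, 39.9 and 29.7 against 102, 142 and 99.7 TPM at BW4, and 512, 432 and 572 against 664, 616 and 610 TPM at BW7. All control tanks were above all plankton tanks at these 3 stages, but the ratio shrank, and at BW5 and BW6 the diets overlapped. The contrast was 1.03 ± 0.21 (adjusted p = 0.0332), the same 1.03 without BW2, where the call was lost (adjusted p = 0.101).

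cyb5r2 (LABE_00039029), a cytochrome b5 reductase, differed chiefly at BW2, with 18.4, 15.4 and 9.41 TPM in plankton and 57.5, 71.7 and 72.4 TPM in control tanks. Its contrast of 0.98 ± 0.18 (adjusted p = 0.0193) was 0.50 without BW2 (adjusted p = 0.565). A gene annotated as Venom protein 302 (LABE_00005513), a name whose role in wrasse is not given, had medians of 4.66 against 12 TPM and then 6.12 against 6.31 TPM (1.47 ± 0.26, adjusted p = 0.0155).

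The reverse course, higher in plankton larvae on live feed with the difference lost afterwards, was shown by 2 apolipoprotein D genes, which encode lipid-binding lipocalins. Apod (LABE_00083710) was lower at each later stage in both diets. Its level was 152, 121 and 297 TPM in plankton tanks against 29.7, 23.1 and 46.9 TPM in control tanks at BW4. At BW5 it was 16.5, 9.21 and 16.7 against 0.851, 3.66 and 1.03 TPM. At BW6 and BW7 no tank exceeded 0.37 TPM. Plankton tanks were above control tanks throughout BW4 and BW5, and once the gene was near 0 in both diets no difference could be measured. The contrast was -1.63 ± 0.31 (adjusted p = 0.0209, 0.0544 with the tank block).

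APOD (LABE_00018911), a second gene of that name, had medians of 47.2 and 26.6 TPM in plankton and control tanks on live feed and 8.08 and 9.79 TPM afterwards, with a contrast of -0.68 ± 0.14 (adjusted p = 0.0389, 0.0544 with the tank block). Both genes were among those still called without BW2 (each adjusted p = 0.045). The unnamed gene LABE_00014908 had medians of 113 against 76.8 TPM and then 76 against 81.6 TPM (-0.68 ± 0.14, adjusted p = 0.0388).

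For fam213a (LABE_00010583), a peroxiredoxin-like gene, the mean diet difference changed sign, but only that on live feed was called. It was 0.31 on live feed (adjusted p = 0.0111 by limma) and -0.44 afterwards (adjusted p = 0.0559). At BW6 the gene was at 17.3, 14.3 and 12.5 TPM in plankton tanks and 25.4, 27.1 and 22.6 TPM in control tanks, with no overlap. At BW7 the diets overlapped, with a difference of -0.15. The contrast was -0.75 ± 0.14 (adjusted p = 0.0193) and the call held with the tank block (0.0162) and without BW2 (0.0494). The unnamed gene LABE_00070857 went from 0.38 on live feed to -0.60 afterwards (-0.99 ± 0.21, adjusted p = 0.0474, 0.066 with the tank block).

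**Figure D3:**
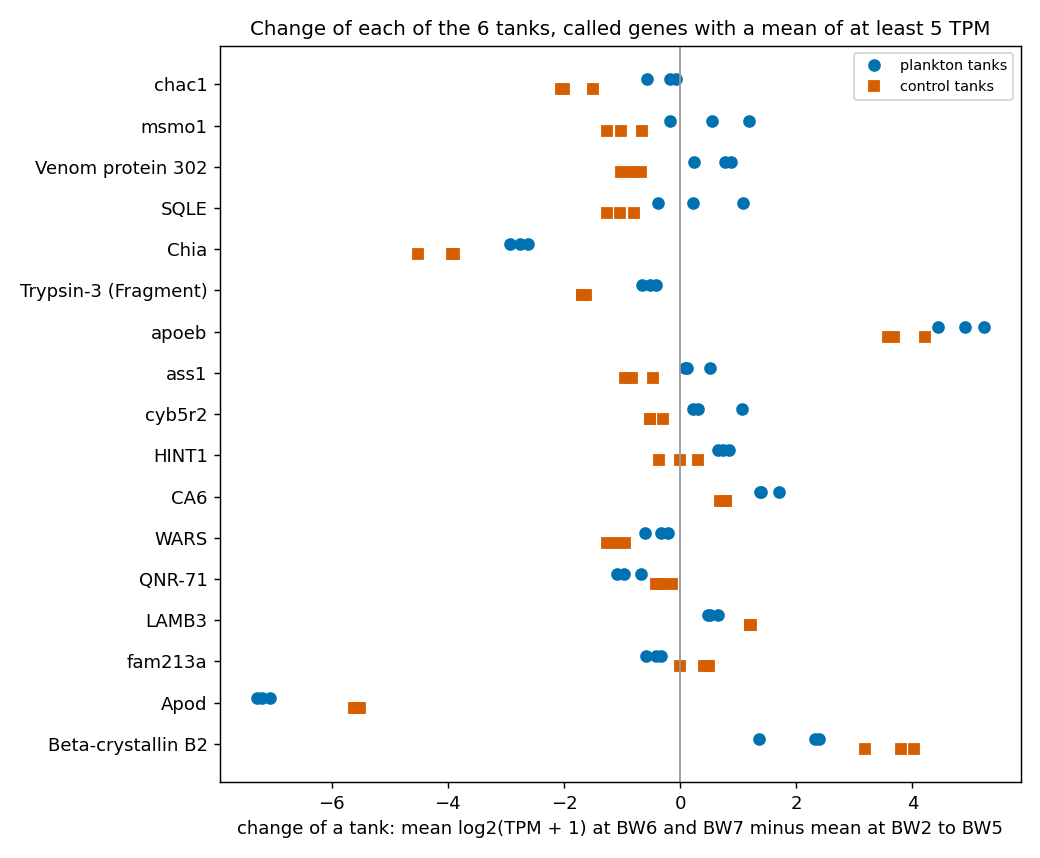
Change of each tank, the mean log2(TPM + 1) at BW6 and BW7 minus the mean at BW2 to BW5, for called genes with a mean of at least 5 TPM chosen by a fixed rule. The rule took only named genes whose plankton and control tanks did not overlap in this change, so the separation shown was set by the choice. Plankton tanks (circles) lie right of control tanks (squares) for the genes from chac1 down to WARS and left of them for the 5 genes from QNR-71 down, and the level of Apod was lower after live feeding in every tank.

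Lens crystallins, the structural proteins of the eye lens, were the main group with a contrast below 0. The median diet difference of the list was above 0 at BW2 and below 0 at BW6. Of 39 tested genes, 3 were called, Beta-crystallin B2, cryaa (LABE_00078757) and Crybb3, all below 0, against 0.059% of all genes. In 31 of the 39 the 3 plankton tanks changed downward relative to the 3 control tanks, against 4.38% of all genes. The median contrast was -0.95 (-0.79 without BW2, -0.38 without BW6 and -1.55 without BW7). By stage the median was 1.16 at BW2, -0.04 at BW3, 0.44 at BW4, 0.39 at BW5, -1.07 at BW6 and 0.10 at BW7. In pools of whole larvae fewer cells of a type and less RNA per cell cannot be told apart, here as for every gene below.

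Beta-crystallin B2 (LABE_00011167) was at 6.03, 7.21 and 5.67 TPM in plankton and 3.16, 1.31 and 1.53 TPM in control tanks at BW2. At BW6 it was at 5.33, 10.4 and 13.2 against 9.7, 21.7 and 45.5 TPM, and at BW7 at 27.8, 48.9 and 58.4 against 63.4, 37.9 and 64.1 TPM. Plankton tanks were all higher at BW2, and the diets overlapped at BW6 and BW7. The contrast was -1.64 ± 0.36 (adjusted p = 0.0484, 0.0239 with the tank block, 0.0687 without the doubted pools).

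cryaa (LABE_00078757) had a stage difference of 1.17 at BW2 (adjusted p = 0.0133) and -1.74 at BW6 (adjusted p = 0.00856), and its contrast was -1.50 ± 0.31 (adjusted p = 0.0388, 0.0544 with the tank block). At BW6 it was at 0.486, 1.86 and 3.61 TPM in plankton tanks and 3.05, 9.99 and 15.6 TPM in control tanks, again lowest in B5 and B6 within each diet. Crybb3 (LABE_00016049) had medians of 1.58 against 0.677 TPM and then 4.9 against 8.58 TPM (-0.93 ± 0.20, adjusted p = 0.0484, 0.0544 with the tank block). Opsins and other genes of light detection, which mark the retina of the same organ, had a median contrast of 0.14. None of 52 was called by limma. At an unadjusted p under 0.05, 5 were above 0 and 1 below 0 (7.88% of all genes in either direction).

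Genes whose mean diet difference was called only after the live feed were fewer. The acidic chitinase Chia (LABE_00058258), which cleaves the chitin of crustacean shells, was lower after live feeding in every tank. Through BW2 to BW5 it had medians of 262 TPM in plankton and 274 TPM in control tanks. At BW6 it was at 59.9, 61.1 and 49 against 29, 28.9 and 33.9 TPM and at BW7 at 24.5, 23 and 23.9 against 6.22, 11.1 and 5.38 TPM. Plankton tanks were above control tanks without overlap at both stages. The diet difference was -0.06 on live feed (adjusted p = 0.847) and 1.28 afterwards (adjusted p = 0.00022), and the contrast was 1.34 ± 0.23 (adjusted p = 0.00918, 0.0129 with the tank block). The mean on live feed joined differences of opposite sign, -0.61 at BW2, -0.25 at BW3, 0.24 at BW4 and 0.39 at BW5. With 0.86 at BW6 and 1.71 at BW7 the difference rose from each stage to the next, also before live feed ended. Of 22 tested genes of the chitinase and lysozyme list this gene alone was called (0.159% of all genes). The list's median was -0.13. Another gene named Chia (LABE_00082067) had a contrast of -1.56 and was not called (adjusted p = 0.112 by limma). The Chia genes LABE_00056099 and LABE_00056104 were more abundant after live feeding and were not called either. Their medians were then 1065 and 653 TPM in plankton tanks and 1244 and 723 TPM in control tanks. The called gene had medians of 36.7 and 20 TPM.

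Trypsin-3 (LABE_00023352, annotated as a fragment), a digestive protease of the pancreas, alone of the 35 was called higher in plankton larvae in both periods. Its mean diet difference was larger after live feeding, chiefly through BW6. At BW5 it was at 3039, 2873 and 2552 TPM in plankton and 1644, 1374 and 1791 TPM in control tanks. At BW6 it was at 803, 899 and 939 against 187, 147 and 179 TPM, and at BW7 at 1656, 1647 and 1137 against 995, 856 and 660 TPM. Plankton tanks were higher at all 3 stages without overlap, most of all at BW6. By stage the diet difference was 1.33 at BW4, 0.82 at BW5, 2.53 at BW6 and 0.84 at BW7, so that BW7 was close to BW5. The mean difference was 0.55 on live feed and 1.68 afterwards. The contrast was 1.13 ± 0.21 (adjusted p = 0.0193 by limma, 0.0239 with the tank block), and between 0.28 and 1.98 over 29 alternatives. Near-identical trypsin genes can share reads, so that the level of a single copy is uncertain.

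Many pancreatic enzymes were higher in plankton larvae in either period. Of 34 tested genes 19 were called higher on live feed (2.49% of all genes) and 23 afterwards (0.486% of all genes), and none lower. In the contrast this Trypsin-3 alone was called, and the list's median contrast was 0.47. At an unadjusted p under 0.05, 17 of the 34 were above 0 and 1 below 0 (7.88% of all genes in either direction). In 14 of them plankton tanks changed upward without overlap (12.1% of all genes). CTRL (LABE_00023322), a chymotrypsin-like protease, had a contrast of 0.97 ± 0.23 (adjusted p = 0.0699) and CPB1, carboxypeptidase B, of 0.81 ± 0.20 (adjusted p = 0.0868). The median diet difference of the list was -0.11 at BW2, 1.31 at BW4, 1.82 at BW6 and 0.43 at BW7. It differed between stages of the same period more than between the periods, and the median contrast turned to -0.15 without BW6 and to -0.01 with BW4 and BW5 alone as the live feed stages, and was 1.18 without BW7.

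Slc6a19 (LABE_00034449), a neutral amino acid transporter known from the brush border of the mammalian gut, was at 12.1, 9.46 and 17.4 TPM in plankton and 3.8, 3.4 and 2.66 TPM in control tanks at BW6. At BW7 the tanks held 4.34, 2.2 and 3.6 against 2.67, 2.52 and 3.85 TPM. The diets did not overlap at BW6 and did at BW7. At BW3 the gene had been lower in plankton larvae (-1.39, adjusted p = 0.0117). Its contrast was 1.11 ± 0.24 (adjusted p = 0.0459 by limma, 0.0544 with the tank block). A second gene named Slc6a19 (LABE_00034444) was not called and went the other way at BW3. There it was at 12.9, 13.4 and 11.3 TPM in plankton and 3.62, 5.39 and 6.17 TPM in control tanks. At BW6 its levels overlapped, at 0.76, 0.526 and 0.622 against 1.04, 0.341 and 0.744 TPM. CA6 (LABE_00012994), a secreted carbonic anhydrase, was at 51.6, 52.5 and 74.5 against 33.8, 26.7 and 32.5 TPM at BW6, without overlap. At BW7 the diets overlapped, with a difference of 0.11. The mean diet difference of CA6 was called in neither period, at -0.28 on live feed and 0.46 afterwards. In plankton larvae the gene had been lower at BW2 (-0.49, adjusted p = 0.0409 by limma) and at BW3 (-0.57, not called). The contrast of CA6 was 0.74 ± 0.16 (adjusted p = 0.0418 by limma, 0.0544 with the tank block, 0.0582 with size factors). The nucleotide hydrolase HINT1 (LABE_00095175) was lower in plankton larvae at BW2 (-1.11, adjusted p = 3.31e-05) and had a value of 0.49 afterwards that was not called. Its contrast of 0.77 ± 0.16 (adjusted p = 0.0388) lost its call with size factors (0.18) and TMM factors (0.188).

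The genes lower in plankton larvae only after live feeding had small contrasts. QNR-71 (LABE_00043694), named for a quail gene of the pigment layer of the retina, was at 10.2, 6.98 and 6.35 TPM in plankton and 14.9, 12.4 and 14.9 TPM in control tanks at BW6 (contrast -0.62 ± 0.12, adjusted p = 0.0332, 0.0457 with the tank block). LAMB3 (LABE_00044429), a laminin chain of the basement membrane under the skin, was at 11.5, 9.44 and 7.73 against 14.5, 16.8 and 18.3 TPM at BW6 (-0.66 ± 0.14, adjusted p = 0.0484, 0.0625 with the tank block). The diets did not overlap at BW6 in either gene. At BW7 they overlapped in both, and the diet difference was -0.27 for QNR-71 and -0.26 for LAMB3. At BW2 both had been higher in plankton larvae, by 0.41 and 0.49 (adjusted p = 0.0304 and 0.0245). LAMB3 was the only 1 of 63 tested keratinocyte and skin genes to be called (0.159% of all genes). The list's median was -0.17.

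RGS8 (LABE_00075295), a regulator of G protein signalling, had medians of 4.39 TPM in plankton and 6.55 TPM in control tanks after live feeding (-0.67 ± 0.14, adjusted p = 0.0406, 0.0536 with the tank block). The remaining 5 genes, of either direction, were at low levels. MR1 (LABE_00078932), a name of an antigen-presenting molecule in mammals, had a median of 0 TPM in both diets on live feed, and 0.139 against 1.08 TPM afterwards (-0.71 ± 0.15, adjusted p = 0.0361, 0.0544 with the tank block). Stonustoxin subunit beta was the name of 2 called genes that went in opposite directions, 0.53 ± 0.11 for LABE_00085038 (adjusted p = 0.0332, 0.0544 with the tank block) and -0.76 ± 0.16 for LABE_00081282 (adjusted p = 0.0458, 0.0572 with the tank block). The unnamed genes LABE_00062618 and LABE_00039982 had medians of 1.11 against 0.518 TPM and 2.03 against 1.10 TPM afterwards, with contrasts of 0.53 (adjusted p = 0.0283 with the tank block) and 0.43 (0.0572 with the tank block). The highest tank library of any of these 5 genes was at 3.84 TPM, and their fold changes are understated on the log2(TPM + 1) scale.

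**Figure D4:**
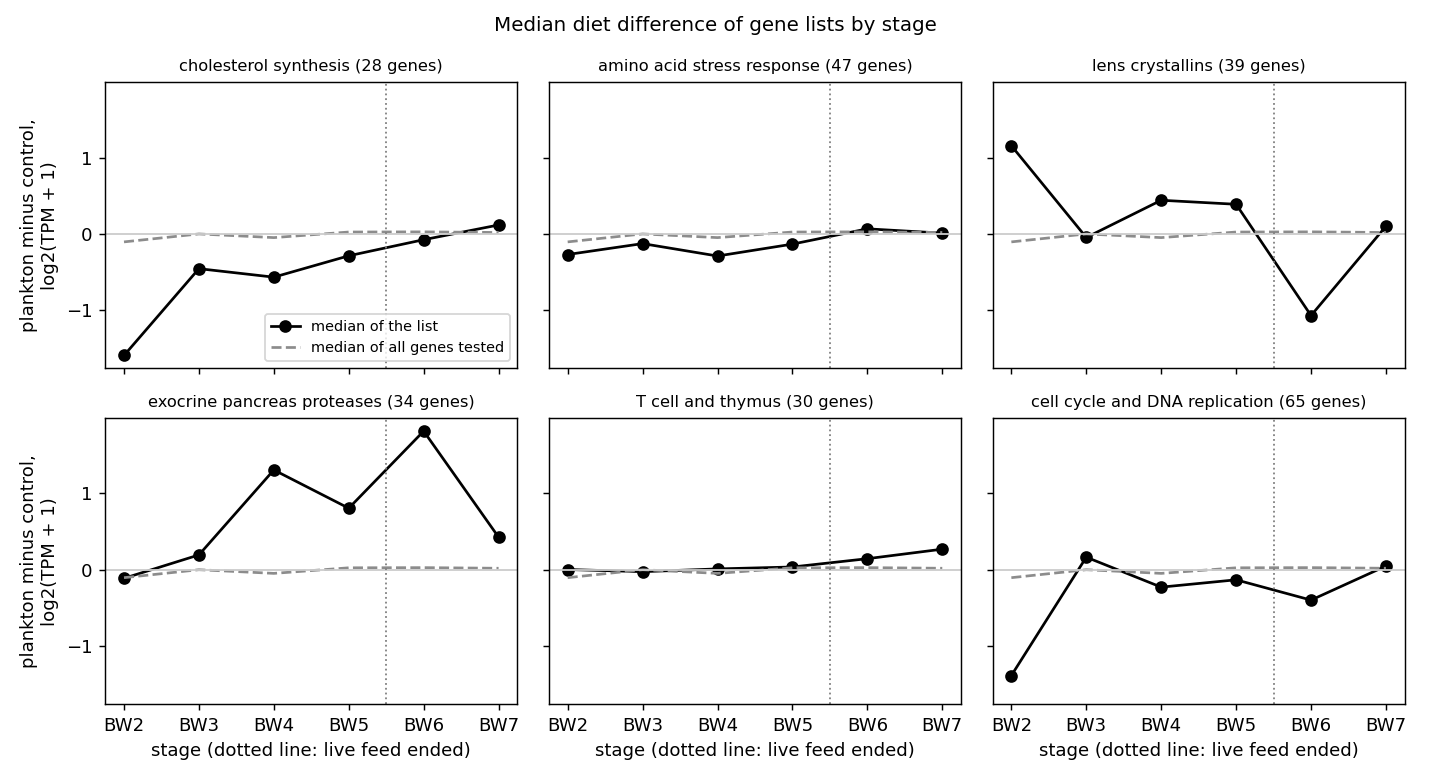
Median plankton minus control difference in log2(TPM + 1) of 6 gene lists at each stage (black), beside the median of all genes tested (grey, dashed), with a dotted line at the end of live feeding. Cholesterol synthesis runs from -1.59 at BW2 to 0.12 at BW7, lens crystallins stand at -1.07 at BW6, and T-cell genes at 0.27 at BW7.

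Genes of T cells and the thymus, the organ in which T cells mature, included 6 that were higher in plankton larvae after live feeding, but none passed the test of the change. Of 30 tested genes none was called by limma in the contrast, 11 had an unadjusted p under 0.05 (7.88% of all genes) and all of these were above 0, and the median was 0.18. Plankton tanks changed upward without overlap in 10 of the 30 (12.1% of all genes). The 6 of 30 called higher after live feeding compare with 0.486% of all genes, and on live feed none of the 30 was called (2.49% of all genes were higher). The receptor kinase ZAP70 came closest, with a contrast of 0.42 ± 0.10 (adjusted p = 0.0529). rag1, which cuts receptor genes in developing lymphocytes, was at 4.67, 8.43 and 8.8 TPM in plankton and 1.66, 4.77 and 3.99 TPM in control tanks at BW6, where B5 was below B8. Its contrast was 0.67 ± 0.18 (adjusted p = 0.13). On live feed rag1 had medians of 0.066 TPM in plankton and 0.053 TPM in control tanks, and ZAP70 of 0.062 and 0.064 TPM. At such levels a diet difference could hardly be measured, so the lack of a call on live feed does not show that there was none. The receptor chain gene TRBC2 was higher then, at 1.18 and 1.6 TPM.

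BW6 and BW7 were not alike in every gene. The diet difference itself differed between BW6 and BW7 in 5 genes (0.0227% of genes tested). One was the neutrophil chemokine receptor CXCR1 (LABE_00021493), at -1.04 at BW6 and 0.24 at BW7 (difference -1.28 ± 0.23, adjusted p = 0.022 by limma). The other 4 were unnamed genes, none of them among the 35.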

How the data were processed

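RNA was sequenced from pools of whole larvae. The submitters' processing notes name Salmon and edgeR. Their versions and the genome build: not given in the sources used here. The authors deposited TPM values, which sum to 1000000 in each of the 77 pools. Pools were averaged per tank and stage, and genes reaching 1 TPM in 3 or more of 41 libraries were kept. log2(TPM + 1) was fitted with limma 3.58.1 in R 4.3.3 (13 stage and diet groups, intensity trend, 28 residual degrees of freedom, Benjamini-Hochberg adjustment over 22028 genes). On simulated data the fit recovered 89% of 2-fold and 100% of 4-fold changes, and 5.03% of its calls were false. The simulated libraries were independent, without tank effects or diet differences on live feed, and only better expressed genes were changed. These shares therefore say nothing of genes at low levels, outlying pools or dependence within tanks. The design ties libraries to a tank, yet same-tank deviations correlated by only 0.0117 to 0.0211 on average, so the tank block is an alternative. Nothing says that the larvae of the 6 tanks came from separate spawnings, so that p-values measure at most the spread between tank libraries within a stage. Libraries of a tank at different stages were counted as independent, and the spread also took in the 5 unfed pools of 1 incubator. The fit with 1 value per tank called no gene.

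The contrast and the 33 gene lists were chosen with earlier results of these data known. List names were trimmed by name without their values (false matches such as ELF1 removed). The T-cell list still holds Cd3eap, a polymerase subunit, and 2 names with over 20 copies were left out. Genes with values in the text are the called genes, the 3 members of each list with the smallest p, and others named for their role after their values were seen, except some that are not reported here. Gene names are those of the table, and 6058 of its genes are named unknown. Alternatives changed the pseudocount, filter, scaling (TMM computed without precision weights, size factors), variance model, replicate unit, tank, stages and pools. Figures were drawn with matplotlib 3.10.9.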

Additional observations from a re-analysis of the deposited data

Results flagged for a closer look

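The diet difference changed between the live feed stages and the dry feed stages in 35 genes, by the test of the change itself (log2 scale, plankton minus control). That test counted libraries of a tank at different stages as independent, and with 1 value per tank no gene was called. Contrasts above 0 were chac1 1.58, WARS 0.716, Chia (LABE_00058258) 1.34, Venom protein 302 1.47, Trypsin-3 1.13, cyb5r2 0.979, ass1 0.984, SLC1A4 0.688, PSPH 0.597, msmo1 1.49 and apoeb 1.03. Further contrasts above 0 were Aldh18a1 0.964, Stonustoxin subunit beta (LABE_00085038) 0.535, HINT1 0.77, LABE_00062618 0.528, CA6 0.74, PHGDH 0.702, LABE_00039982 0.433, Slc6a19 1.11, FDFT1 0.847 and SQLE 1.34. The contrasts below 0 were fam213a -0.747, Apod -1.63, QNR-71 -0.62, MR1 -0.713, LABE_00014908 -0.681, cryaa (LABE_00078757) -1.5, APOD -0.684, RGS8 -0.669, Stonustoxin subunit beta (LABE_00081282) -0.757, LABE_00070857 -0.985, Crybb3 -0.929, LAMB3 -0.656 and Beta-crystallin B2 -1.64.

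The diet difference also changed between BW6 and BW7 in 5 genes, with BW6 minus BW7 values of CXCR1 (LABE_00021493) -1.28, LABE_00061859 -4.15, LABE_00075814 3.09, LABE_00092819 -4.63 and LABE_00092820 -4.24. None of these 5 was among the 35.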

How the results depend on the processing

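None of the 35 genes changed direction under any of the 29 alternatives that gave it a value, while the median contrast of 18 of the 33 gene lists changed sign under at least 1. The count of genes whose diet difference changed, 35 as reported, was 19 with the tank as a replicate block, 0 with 1 value per tank (2108 at an unadjusted p under 0.05), 65 with tank as a random block, 294 with each pool as a replicate, 13 and 19 with pseudocounts of 0.1 and 0.5, 57 with no filter, 81 with size factors, 82 with TMM factors and 861 with array weights. It was 8 without BW2, 57 without BW3, 23 without BW4, 97 without BW5, 75 without BW7, 15 with BW4 and BW5 alone as the live feed stages, and 91 without the pools whose title is written with spaces. Chosen after seeing the data, it was 128 without the doubted pools and 1 without BW2 and with the tank block. Leaving out a tank gave 2 to 53. The count on live feed, 2017, was 3846 with each pool as a replicate, 6014 with array weights, 340 without BW2, 3686 without BW3, 1054 without BW4, 241 with BW4 and BW5 alone, 3482 without those pools, 427 without BW2 and with the tank block, and 650 to 1934 without a tank. The count afterwards, 142, was 329 with each pool as a replicate, 60 and 92 with pseudocounts of 0.1 and 0.5, 94 with a minimum of 5 TPM, 636 with array weights, 27 without BW6, and 60 to 122 without a tank. Other alternatives kept these counts within 1.5 times, although a like count can hold other genes. Of the 33 genes called without BW6, only 8 were among the 35. The causes were not tested. Without depth no counting interval can be given, and genes below 1 TPM are least certain.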

Other observations

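Of the 33 gene lists, 26 held no called gene by limma (0 to 21 members each at an unadjusted p under 0.05), and their median contrasts ran from -0.09 to 0.28, beside 0.06 over all genes. Cell cycle and DNA replication genes were lower in plankton larvae on live feed in 53 of 65, against 6.66% of all genes, and none was called afterwards. Their median diet difference was -1.38 at BW2 and between -0.40 and 0.17 at the other stages. The median contrast was 0.19, and it was -0.13 without BW2, -0.01 without BW7 and -0.01 with BW4 and BW5 alone as the live feed stages. Genes of the mitochondrial respiratory chain had 19 of 97 lower on live feed (6.66% of all genes) and none afterwards. In 24 of the 97 all 3 plankton tanks changed upward relative to all 3 control tanks, against 12.1% of all genes. The list's median contrast was 0.09, and its median change was below 0 in every tank of either diet.

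The liver plasma protein list had the highest of these medians, 0.28. At an unadjusted p under 0.05, 9 of its 46 members were above 0 and none below (7.88% of all genes in either direction). The list's median was -0.02 without BW6 and 0.63 without BW7. APOA1 (LABE_00047835), the main protein of high-density lipoprotein, had a diet difference of -0.80 on live feed (adjusted p = 0.000203 by limma) and -0.02 afterwards, and its contrast of 0.77 was not called (adjusted p = 0.179). Red cell genes had a median of 0.25. Among them NFE2 (LABE_00018804), a transcription factor of blood cells, was higher in plankton larvae after live feeding by 0.55 (adjusted p = 0.0128), with a contrast of 0.60 ± 0.14 (adjusted p = 0.058). Ribosomal protein genes changed downward in plankton tanks without overlap in 20 of 85, against 4.38% of all genes, with a median of -0.07.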
